A study of Mus musculus with 4 samples.

Results

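The genes described here are Il6st, Osmr, Lifr, Stat3, Socs3, Jak1 and Jak2, the receptor chains, kinases, transcription factor and feedback inhibitor through which oncostatin M and leukemia inhibitory factor (LIF) signal. They were chosen by name, and all 7 were present among the 22574 genes of the deposited matrix. Single-nucleus RNA sequencing (snRNA-seq) had been performed on hearts of neonatal mice on a C57BL/6 background, with 1 library for each combination of genotype and surgery. WT stands for mice with the loxP-flanked Nrf1 allele (Nrf1fl/fl) and KO for Nrf1fl/fl:aMHC-Cre mice, in which the alpha myosin heavy chain promoter drives Cre recombinase in cardiomyocytes, so every library carried the floxed allele. At postnatal day 3 pups received either Sham surgery, in which the chest was opened and no vessel tied, or a myocardial infarction (MI), made by tying off the left anterior descending artery of the heart. Tissue below the ligation plane was taken the day after surgery and pooled from 4 to 6 hearts per library. The strain field of the labels gives a different number after C57BL in each library. The authors kept cardiomyocyte nuclei and named 4 populations, CM1, CM2, CM4 and CM5.

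The cytokines of this family share gp130, the receptor subunit encoded by Il6st. LIF binds gp130 together with LIFR (Lifr), and oncostatin M binds gp130 together with OSMR (Osmr). The receptors activate the kinases JAK1 and JAK2, which phosphorylate STAT3, and STAT3 induces SOCS3, an inhibitor that binds gp130 and the kinases and dampens the signal. In cardiac muscle the pathway is known for its part in hypertrophy, survival and the dedifferentiation of cardiomyocytes. Transcript counts do not measure receptor activity or STAT3 phosphorylation.

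The Socs3 promoter is printed because it was the only promoter window of the 7 genes to hold the letters TTCNNNGAA, the palindrome that STAT factors bind. The RefSeq window covers the 250 bases before the annotated start on GRCm38.p6, chr11:117969367-117969616, minus strand, written from 5′ to 3′ with the match in capitals. It includes sequence that the GENCODE annotation assigns to a noncoding Socs3 transcript.

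Socs3: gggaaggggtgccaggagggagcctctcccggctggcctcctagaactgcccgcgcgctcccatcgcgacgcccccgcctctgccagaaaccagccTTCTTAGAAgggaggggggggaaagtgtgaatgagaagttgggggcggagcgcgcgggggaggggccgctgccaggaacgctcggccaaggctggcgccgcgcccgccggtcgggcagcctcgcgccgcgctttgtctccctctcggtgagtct

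The match begins 154 bases before the start. The searched pattern, with N for any base, is its own reverse complement, so 1 search covers both strands. Of the 8 RefSeq windows found for the 7 genes, 1 held a match, and 7.02% of all 32851 windows of that length did. A match describes the letters and is not a measured binding site.

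Each of 8585 nuclei was described by counts of unique molecular identifiers (UMIs), the tags that mark single captured RNA molecules. Totals per library ranged from 4984625 to 9106522 UMIs, and the median nucleus held from 2572 UMIs in KO-Sham to 3959 in KO-MI. Levels (CPM) are counts per 1000000 UMIs, summed over the nuclei of a library and population, and such a sum cannot tell fewer expressing nuclei from less RNA per nucleus. With 1 library per group no test was possible, nuclei of a pool are not replicates, and each interval given is an exact 95% interval that covers counting error only. All 10 cardiomyocyte markers examined had UMIs in every population of every library, at a summed level of 27254 to 45532 CPM. The targeted gene, Nfe2l1, went against its label in CM1 after MI, at 44.1 CPM in CM1 of the library labelled WT-MI and 57.7 CPM in that labelled KO-MI. The log2 ratio of KO over WT after MI was 0.39 (0.14 to 0.63) in CM1, 0.06 (-0.41 to 0.52) in CM5, -0.95 (-2.11 to 0.12) in CM4 and -0.81 (-2.20 to 0.50) in CM2. Over all nuclei after MI, Nfe2l1 stood at 47.4 CPM in WT-MI and 55.3 in KO-MI. Between the Sham libraries its ratio was -0.30 (-0.51 to -0.09) over all nuclei, in the direction of the label, and -0.20 (-0.44 to 0.03) in CM1, where the interval included 0. The part of the gene that is deleted is not given in the sources used here, so these 3′ tags may not read it, and WT and KO below mean the libraries so labelled. The deposited populations were partly crossed with the labels transferred from an earlier reference, since 743 of 1017 CM5 nuclei carried the transferred name CM2. For results by the transferred label, each deposited population was matched to the transferred name that most of its nuclei carried. There CM5 means nuclei with the transferred name CM2, and CM2 means those named CM5. Nuclei with the transferred name CM3 were left out of those results. Only 9 cell barcodes occurred in more than 1 library.

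Genes of other cell types also differed between MI and Sham libraries. The summed level of 11 myeloid markers, led by S100a9 or, in KO-MI, by S100a8, was 123 CPM in WT-Sham, 95.6 in KO-Sham, 546 in WT-MI and 272 in KO-MI in CM1 nuclei, and all 11 markers were detected in each of those libraries. The 8 fibroblast markers, led by Col3a1, stood at 1079, 951, 916 and 927 CPM in the same nuclei and order. The 8 endothelial markers, led by Fabp4, stood at 466, 844, 496 and 559 CPM, and the 6 mural markers, led by Abcc9, at 403, 336, 217 and 216 CPM. The 5 red blood cell markers, led by Hbb-bs, stood at 2545, 1891, 3829 and 2025 CPM. In CM5 the myeloid markers stood at 126, 107, 492 and 281 CPM. The matrix analysed held cardiomyocytes alone, so no other cell type gave a background level for free RNA, and the part of these markers in the results below was not tested except where nuclei were left out.

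Among the receptor chains of the 7 genes, Osmr differed most between MI and Sham. Its level was higher after MI in CM1, CM4 and CM5 under both genotype labels, and the intervals of the MI and Sham levels did not overlap in CM1 or CM5. Lifr, the other chain that pairs with gp130 here, did not share this pattern and was lower after MI in CM5. The shared chain Il6st was slightly higher after MI in CM1 of the KO label, but not detectably so once nuclei were brought to equal depth. The kinases Jak1 and Jak2 were slightly lower in CM1 of the WT label. Stat3 was modestly higher after MI, and Socs3 was higher from very few UMIs. Between the genotype labels, no gene of the 7 had an interval apart from 0 after MI in CM1, CM4 or CM5.

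Osmr (chromosome 15, 6813577 to 6874969 on the minus strand of GRCm38, overlapped by no annotated gene) was counted in CM1 with 21 UMIs in WT-Sham, 60 in KO-Sham, 99 in WT-MI and 83 in KO-MI. These counts gave 5.06 CPM (3.13 to 7.73), 8.18 (6.24 to 10.5), 17.1 (13.9 to 20.8) and 15.6 (12.4 to 19.3). Both MI libraries lay above both Sham libraries. The log2 ratio of MI over Sham was 1.75 (1.06 to 2.51) for the WT label and 0.93 (0.43 to 1.43) for the KO label. Counted from the highest ratio, Osmr was 207 of 12738 genes for the WT label and 687 of 13152 for the KO label, among genes whose MI and Sham sums together reached 20 UMIs. Over all nuclei Osmr stood at 5.82, 8.13, 25.8 and 22.8 CPM, in the order given above, and the ratios were 2.15 (1.58 to 2.76) and 1.49 (1.09 to 1.90). Sums over all nuclei mix populations whose shares differed between the libraries.

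CM5, a population that held 6.33% and 7.03% of the nuclei of the Sham libraries and 16.9% and 19.2% of those of the MI libraries, had the highest Osmr level after MI. The 10 cardiomyocyte markers summed to 40410 and 42015 CPM in CM5 of WT-Sham and KO-Sham and to 27733 and 28374 CPM in CM5 of WT-MI and KO-MI, and 7 genes of the cardiomyocyte injury response, led by Ankrd1 after MI, summed to 1885, 2112, 11358 and 11309 CPM in that population. The Osmr counts in CM5 were 1 UMI in WT-Sham, 11 in KO-Sham, 91 in WT-MI and 76 in KO-MI, or 3.07, 17.3, 61.6 and 54.1 CPM. The ratio was 4.32 (1.81 to 9.64) for the WT label, from a single Sham UMI, and 1.64 (0.72 to 2.71) for the KO label. Within the library labelled WT-MI, the CPM of Osmr was 3.61-fold higher in CM5 than in CM1, and within KO-MI 3.47-fold. This difference between populations is a description, since the populations were clustered on the same nuclei. In CM4, the counts were 4, 1, 15 and 5 UMIs in the order WT-Sham, KO-Sham, WT-MI and KO-MI, and in CM2 they were 3, 2, 0 and 4. The CM4 ratios were 1.82 (0.17 to 3.86) and 3.41 (0.25 to 8.97), and the CM2 counts were too few to give a WT ratio. The CM4 intervals are fragile, since the WT ratio was 1.64 (-0.01 to 3.69) with trimmed mean of M-values (TMM) scaling, and with populations taken from the transferred label the KO ratio was 1.39 (-0.26 to 3.16).

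An Osmr UMI was found in 1.91% of CM1 nuclei of WT-Sham (21 of 1098), 2.21% of KO-Sham, 6.64% of WT-MI and 5.50% of KO-MI (72 of 1308). In CM5 the shares were 1.12%, 3.85%, 21.5% and 16.1%. Median depth in CM1 was 3749, 2632, 4042 and 4043.5 UMIs in that order, and in CM5 it was 3562, 2544.5, 4317 and 3843. When all nuclei were brought down to 1000 UMIs at random, the CM1 shares were 0.547%, 0.802%, 0.919% and 1.15% and their intervals overlapped. The thinned CM5 shares were 0% of 89, 1.71% of 234, 6.49% of 339 and 3.94% of 355 nuclei, in the same order. The thinned sums gave ratios of 0.75 (-0.75 to 2.43) and 0.52 (-0.54 to 1.54) in CM1 and of 1.31 (-0.35 to 3.36) in CM5 of the KO label, so in those comparisons the difference was not detectable at that depth. Over all nuclei, the thinned shares were 0.5% (0.201 to 1.03) in WT-Sham, 0.811% (0.535 to 1.18) in KO-Sham, 1.998% (1.43 to 2.71) in WT-MI and 1.68% (1.14 to 2.37) in KO-MI. For the WT label, the MI and Sham intervals of the thinned shares did not overlap over all nuclei or in CM5, where they were 4.11 to 9.66% and 0 to 4.06%. The shares over all nuclei also depend on the part of each library that was CM5, which was larger after MI.

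Within CM1 of WT-MI, the myeloid markers summed to 489 CPM in the 94 nuclei with an Osmr UMI and to 550 CPM in the 1321 without, and the fibroblast markers to 873 and 920 CPM. In CM5 of WT-MI, the myeloid markers summed to 493 CPM in 73 nuclei with an Osmr UMI and 492 CPM in 266 without. In the library labelled KO-MI the myeloid markers summed to 271 CPM with and 272 without an Osmr UMI in CM1, and to 328 with and 271 without in CM5. Without every nucleus that held a myeloid UMI, the CM1 ratio of MI over Sham was 2.25 (1.24 to 3.30) for the WT label and 0.65 (-0.10 to 1.36) for the KO label, so for the KO label the interval then included 0. In CM5 of the KO label the ratio was then 1.34 (0.19 to 2.62). Leaving those nuclei out was chosen after the data had been seen.

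**Figure D1:**
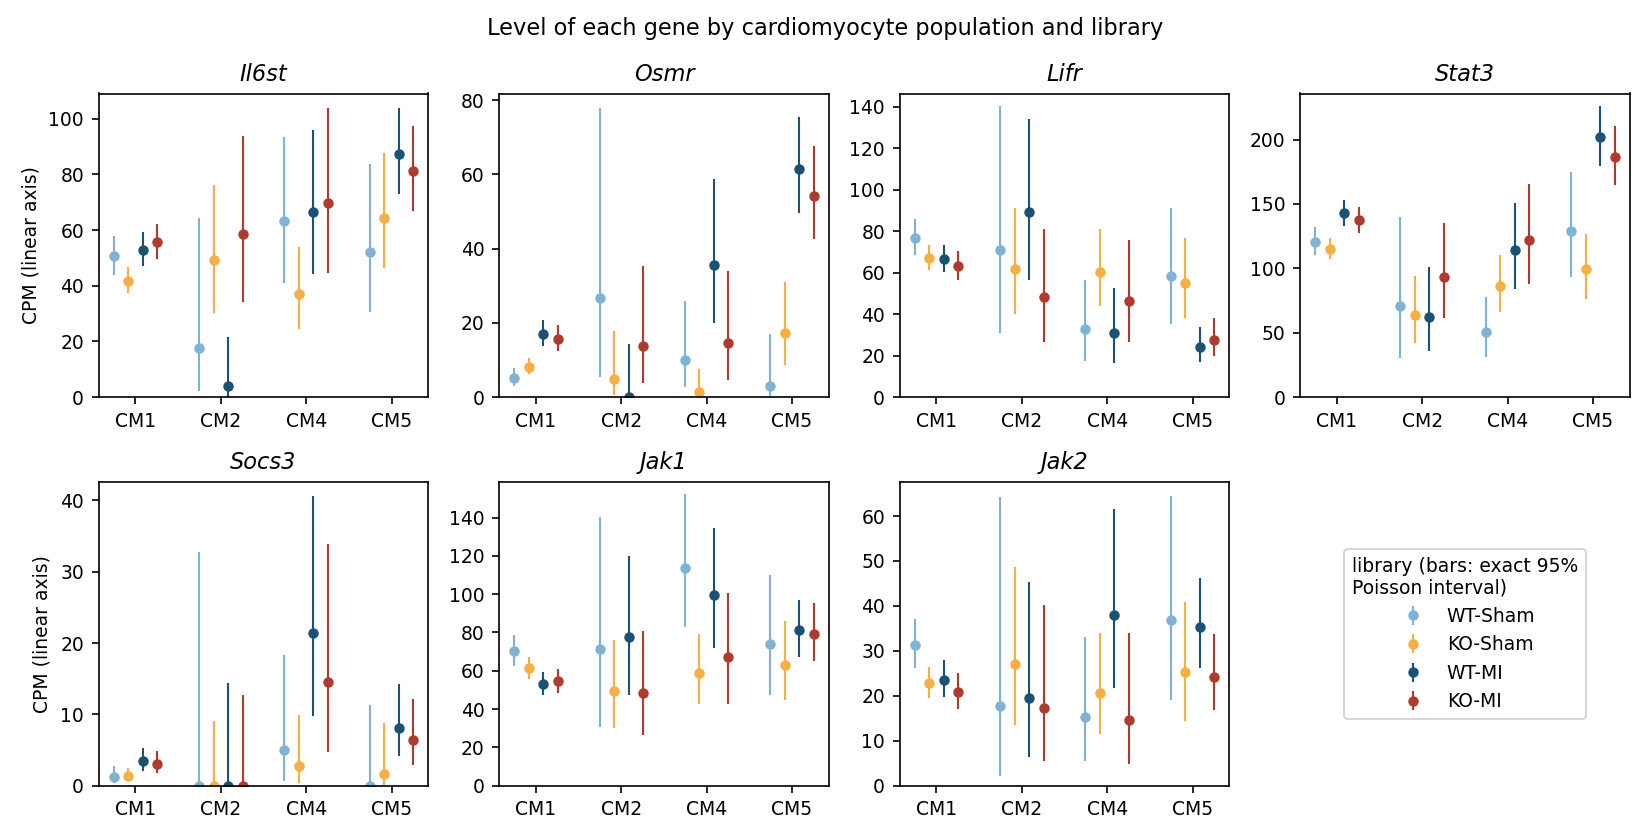
Level of each of the 7 genes, in CPM on a linear axis, in the 4 populations, with 1 point per library and an exact 95% Poisson interval. Osmr in CM5 lies at 61.6 and 54.1 CPM in the MI libraries against 3.07 and 17.3 in the Sham libraries, while Lifr in CM5 lies lower in the MI libraries.

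Lifr (chromosome 15, 7090614 to 7197489, plus strand) had 319, 493, 386 and 336 UMIs in CM1 of WT-Sham, KO-Sham, WT-MI and KO-MI, or 76.8, 67.2, 66.6 and 63.1 CPM. The CM1 intervals overlapped within each label, with log2 ratios of MI over Sham of -0.21 (-0.43 to 0.01) and -0.09 (-0.29 to 0.11). In CM5 the counts were 19, 35, 36 and 39 UMIs, or 58.4, 55.1, 24.4 and 27.8 CPM. Here Lifr was lower in both MI libraries, with ratios of -1.26 (-2.10 to -0.38) for the WT label and -0.99 (-1.68 to -0.29) for the KO label. Without the nuclei that held a myeloid UMI these Lifr ratios were -1.24 (-3.12 to 0.40) and -0.67 (-1.62 to 0.26), and after thinning they were -1.19 (-2.80 to 0.55) and 0.27 (-1.29 to 1.99), so neither interval then lay apart from 0. In CM4, Lifr had 13, 44, 13 and 16 UMIs and both ratios had intervals that included 0.

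Osmr and Lifr are alternative partners of gp130, so their balance was expressed as the share of Osmr among the UMIs of both genes, which needs no scaling between libraries. In CM1, Osmr made up 6.18% (3.86 to 9.29) of 340 UMIs in WT-Sham and 10.8% (8.38 to 13.7) of 553 in KO-Sham. After MI it made up 20.4% (16.9 to 24.3) of 485 UMIs in the WT label and 19.8% (16.1 to 24.0) of 419 in the KO label. In CM5 the share was 5% (0.127 to 24.9) of 20 UMIs in WT-Sham and 23.9% (12.6 to 38.8) of 46 in KO-Sham, against 71.7% (63.0 to 79.3) of 127 in WT-MI and 66.1% (56.7 to 74.7) of 115 in KO-MI. Lifr thus gave most of the UMIs of the pair in CM1 of all 4 libraries, and Osmr gave most of them in CM5 of the MI libraries. The genes differ in length, so the share describes the change between libraries and not the ratio of the molecules.

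**Figure D2:**
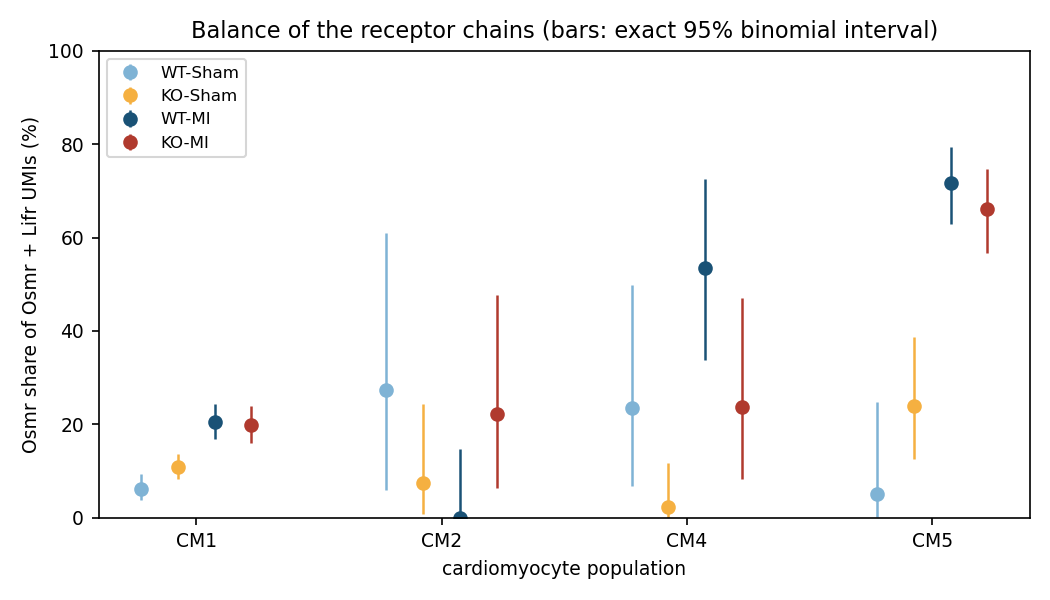
Share of Osmr among the UMIs of Osmr and Lifr, in percent, by population, with 1 point per library and an exact 95% binomial interval. In CM5 the MI libraries lie at 71.7% and 66.1% and the Sham libraries at 5% and 23.9%, and in CM2, where each library held 27 UMIs or fewer, all 4 intervals overlap.

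Il6st (chromosome 13, 112464070 to 112510086, plus strand) encodes the shared subunit gp130. It had 210, 307, 307 and 296 UMIs in CM1 of WT-Sham, KO-Sham, WT-MI and KO-MI, or 50.6, 41.9, 52.9 and 55.6 CPM. The ratio of MI over Sham was 0.07 (-0.19 to 0.33) for the WT label and 0.41 (0.17 to 0.65) for the KO label, where the Sham library was the lowest of the 4. The KO ratio was 0.22 (-0.13 to 0.56) without the nuclei that held a myeloid UMI, and 0.10 (-0.35 to 0.55) after thinning to 1000 UMIs. In CM5 Il6st stood at 52.3, 64.5, 87.3 and 81.2 CPM, with ratios of 0.74 (0.005 to 1.56) and 0.33 (-0.20 to 0.88). In CM4 it stood at 63.2, 37.0, 66.5 and 69.8 CPM, with ratios of 0.07 (-0.76 to 0.91) and 0.92 (0.06 to 1.77). The CM4 interval of the KO label included 0 with TMM scaling (-0.01 to 1.69) and under 5 other alternatives, and the CM5 interval of the WT label included 0 under 4, among them the transferred label (-0.30 to 1.36). In CM2 it had 2 UMIs in WT-Sham and 1 in WT-MI but 20 in KO-Sham and 17 in KO-MI, and the log2 ratio of KO over WT after MI was 3.91 (1.24 to 9.30). These CM2 sums held 27, 57, 124 and 67 nuclei in the order WT-Sham, WT-MI, KO-Sham and KO-MI, and the red blood cell markers in CM2 stood at 18447 CPM in WT-MI against 1892 in KO-MI; their part in the Il6st difference was not tested.

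The kinases had lower levels after MI in CM1 of the WT label. Jak1 (chromosome 4, 101152367 to 101265282, minus strand, overlapped by 3 annotated genes) had 291, 449, 307 and 290 UMIs in CM1 of WT-Sham, KO-Sham, WT-MI and KO-MI, or 70.1, 61.2, 52.9 and 54.5 CPM, with ratios of -0.41 (-0.64 to -0.17) and -0.17 (-0.39 to 0.05). Jak2 (chromosome 19, 29251828 to 29313080, plus strand) had 130, 167, 137 and 111 UMIs, or 31.3, 22.8, 23.6 and 20.9 CPM, with ratios of -0.41 (-0.76 to -0.05) and -0.13 (-0.49 to 0.23). WT-Sham was thus the highest library for both kinases. With TMM scaling, the CM1 ratio of Jak2 was -0.31 (-0.67 to 0.04) for the WT label, and that of Jak1 was -0.23 (-0.45 to -0.01) for the KO label. In CM5 both kinases had ratios whose intervals included 0, from -0.07 to 0.33, although Jak1 of the KO label was at 0.86 (0.08 to 1.69) without the nuclei that held a myeloid UMI. In CM4, Jak1 had ratios of -0.19 and 0.19, and Jak2, from 6, 15, 16 and 5 UMIs, had ratios of 1.32 (-0.10 to 2.97) and -0.50 (-2.31 to 1.04).

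Stat3 (chromosome 11, 100885098 to 100939540, minus strand, overlapped by Stat5a on the other strand) encodes the transcription factor of the pathway and had the most UMIs of the 7 genes. In CM1 it had 501, 845, 828 and 730 UMIs in WT-Sham, KO-Sham, WT-MI and KO-MI, or 121, 115, 143 and 137 CPM. Both MI libraries lay above both Sham libraries, and the ratios of MI over Sham were 0.24 (0.08 to 0.41) and 0.25 (0.11 to 0.40). In CM5 Stat3 stood at 129, 99.2, 202 and 187 CPM, with ratios of 0.64 (0.17 to 1.15) and 0.91 (0.51 to 1.33). The MI libraries again lay above both Sham libraries. In CM4 it stood at 50.6, 86.2, 114 and 122 CPM, with ratios of 1.17 (0.39 to 2.002) and 0.50 (-0.10 to 1.09). In CM2 it stood at 71.1, 64.1, 62.2 and 93.1 CPM and both ratios had intervals that included 0. Without the nuclei rich in genes of other cell types, the CM4 ratio of the WT label was 0.20 (-1.77 to 2.25), and that of CM1 of the KO label 0.18 (-0.005 to 0.37). Without the nuclei that held a myeloid UMI, the CM5 ratio of the WT label was 0.31 (-0.50 to 1.14).

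Socs3 (chromosome 11, 117966079 to 117970047, minus strand), the feedback inhibitor whose promoter is shown above, was the most sparsely counted of the 7 genes. In CM1 it had 5 UMIs in WT-Sham, 10 in KO-Sham, 20 in WT-MI and 16 in KO-MI, or 1.204, 1.36, 3.45 and 3.01 CPM. No CM1 nucleus held more than 1. The ratios were 1.52 (0.06 to 3.29) for the WT label and 1.14 (-0.09 to 2.44) for the KO label. With populations taken from the transferred label, the WT ratio was 1.51 (-0.12 to 3.55). Within the MI libraries Socs3 was highest in CM4, at 21.4 CPM in WT-MI and 14.5 in KO-MI, from 9 and 5 UMIs. CM4 nuclei had the lowest median depth, 1715.5 to 2394 UMIs against 2632 to 4043.5 in CM1, and the highest median mitochondrial share, 9.47% to 14.6% against 5.05% to 8.78%. In WT-MI the myeloid markers stood at 973 CPM in CM4 against 546 in CM1, and the fibroblast markers at 2383 against 916. The endothelial markers stood there at 1616 against 496 CPM, and the mural markers at 195 against 217. In KO-MI these 4 lists stood at 512, 2252, 1629 and 259 CPM in CM4. Their part in the Socs3 level of CM4 was not tested. In the Sham libraries CM4 held 2 Socs3 UMIs each, and in CM5 the counts were 0, 1, 12 and 9, while CM2 had none in any library. The exact interval of the 0 in CM5 of WT-Sham reaches 11.3 CPM, which is above the 8.12 CPM of WT-MI, so a difference was not detectable there at this depth. Over all nuclei of a library, Socs3 had 7, 13, 41 and 30 UMIs, with ratios of 1.88 (0.70 to 3.28) and 1.51 (0.53 to 2.58). Those sums also mix populations whose shares differed between the libraries.

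**Figure D3:**
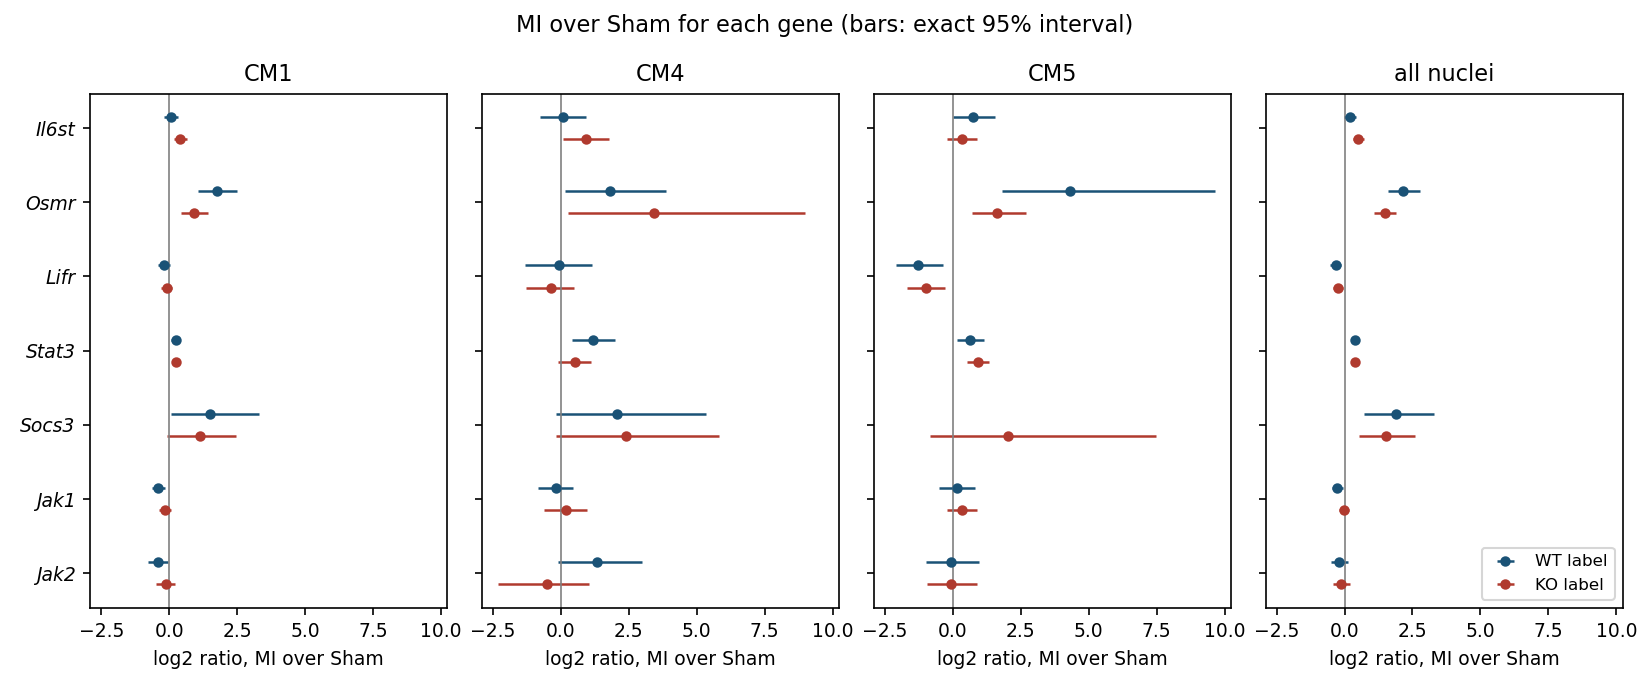
Log2 ratio of MI over Sham for each of the 7 genes in CM1, CM4, CM5 and all nuclei, with exact 95% intervals, in blue for the WT label and red for the KO label. Osmr lies to the right of 0 in all 4 panels, Lifr lies to the left in CM5 at -1.26 and -0.99, and Socs3 of the WT label is not drawn in CM5 because WT-Sham held 0 UMIs.

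A gene was counted as higher or lower when its log2 ratio of MI over Sham reached 1 in size and the sums compared held at least 20 UMIs together. The 7 genes were chosen with earlier results of these data known, so the counts are descriptions. In CM1 of the WT label, 2 of the 7 genes, Osmr and Socs3, were higher, where 4.8% of all genes were, and none was lower, where 5.01% were. In CM1 of the KO label, 1 of 7, Socs3, was higher against 4.36% of all genes, with Osmr just inside the limit at 0.93, and none was lower against 4.3%. In CM4 of the WT label, 2 of the 5 genes with enough UMIs, Stat3 and Jak2, were higher against 13.3%, and none was lower against 5.64%. In CM4 of the KO label none of 5 was higher or lower, against 6.42% and 8.64% of all genes. In CM5 of the WT label, 1 of 6, Osmr, was higher against 12.5%, and 1 of 6, Lifr, was lower against 10.8%. In CM5 of the KO label, 1 of 6, Osmr, was higher against 12.8%, and none was lower against 9.37%. The median over all genes was -0.071 and 0.031 in CM1 of the WT and KO labels, 0.156 and 0.0004 in CM4, and -0.037 and 0.094 in CM5, so the CM4 ratios of the WT label stand on a median above 0. TMM scaling moved all ratios by -0.18 in CM4 and 0.20 in CM5 of the WT label and by 0.14 between the Sham libraries in CM1.

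The genotype labels were compared within each surgery. After MI, the log2 ratio of KO over WT in CM1 lay between -0.20 for Socs3 and 0.07 for Il6st, and all 7 intervals included 0. Without the nuclei that held a myeloid UMI, however, Osmr in CM1 after MI was at -1.04 (-1.92 to -0.16). In CM5 after MI the ratio of Osmr was -0.19 (-0.65 to 0.27) and that of Stat3 -0.11 (-0.36 to 0.13). After Sham surgery in CM1, Il6st was lower in the library labelled KO by -0.27 (-0.53 to -0.01) and Jak2 by -0.46 (-0.80 to -0.12), while the median of all genes in that pair was -0.11. With TMM scaling these ratios were -0.14 (-0.40 to 0.12) and -0.32 (-0.66 to 0.02). Osmr was at 0.69 (-0.04 to 1.48) in the same pair, and at 0.83 (0.09 to 1.62) with TMM scaling. In CM4 of the Sham libraries, Stat3 was at 0.77 (0.02 to 1.57), or 0.74 (-0.01 to 1.54) with TMM scaling, and Jak1 at -0.95 (-1.59 to -0.32), or -0.70 (-1.48 to 0.09) without the nuclei that held a myeloid UMI. Over all nuclei, Jak2 was at -0.33 (-0.63 to -0.02) after MI and at -0.39 (-0.70 to -0.08) after Sham surgery, and Jak1 was at -0.28 (-0.48 to -0.09) after Sham surgery. With TMM scaling, the Sham ratios over all nuclei were -0.28 (-0.59 to 0.03) for Jak2 and -0.18 (-0.37 to 0.02) for Jak1. A ratio whose interval includes 0 does not show that the libraries were alike. The MI over Sham ratios of both labels are separate comparisons, and the difference between them was not tested.

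Levels were also divided by gene span, since intron reads were counted. Whether these 3′ tags rise with gene span was not tested, so the orders below hold for this scaling only. Per kilobase of gene span, Stat3 had the highest level over all nuclei, at 2.10 CPM per kb in WT-Sham and 2.75 in WT-MI. In WT-Sham it was followed by Il6st at 1.11, Lifr at 0.674, Jak1 at 0.654, Jak2 at 0.491, Socs3 at 0.354 and Osmr at 0.0948 CPM per kb. The intervals of Lifr and Jak1 overlapped, and that of Socs3 overlapped those of Lifr, Jak1 and Jak2. In WT-MI the order was Stat3, Socs3 at 1.30, Il6st at 1.27, Jak1 at 0.544, Lifr at 0.539, Jak2 at 0.431 and Osmr at 0.420 CPM per kb. There each gene from Socs3 down overlapped its neighbour in the order, except Il6st and Jak1. In KO-Sham the order was Stat3 at 2.01, Il6st at 0.943, Lifr at 0.613, Jak1 at 0.537, Jak2 at 0.375, Socs3 at 0.360 and Osmr at 0.132 CPM per kb. In KO-MI it was Stat3 at 2.65, Il6st at 1.33, Socs3 at 1.03, Jak1 at 0.527, Lifr at 0.515, Osmr at 0.372 and Jak2 at 0.344 CPM per kb. Osmr was thus last in both Sham libraries and overlapped Jak2 in both MI libraries.

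The ligands had few UMIs in these nuclei. Over all nuclei, Osm, which encodes oncostatin M, had 0 UMIs in WT-Sham, 1 in KO-Sham, 6 in WT-MI and 3 in KO-MI. Lif had 1, 2, 16 and 11 UMIs in the same order, and its ratios of MI over Sham were 3.33 (0.64 to 8.72) and 2.77 (0.57 to 5.98). Neither Lif comparison reached 20 UMIs over both sums. Clcf1, a cardiotrophin-like cytokine, had 1, 3, 9 and 17 UMIs, with a ratio of 2.81 for the KO label. Of these UMIs, 16 of the 17 in KO-MI and all 9 in WT-MI lay in CM5. Ctf1, which encodes cardiotrophin 1, had 9, 17, 14 and 4, with ratios of -0.04 for the WT label and -1.78 for the KO label. Both Ctf1 comparisons reached 20 UMIs over both sums. Il6 had 0, 1, 6 and 7 UMIs, Il11 had 1, 3, 0 and 7, Cntf had 1, 5, 7 and 6, and Il27 had 3, 5, 5 and 9. None of these ligands reached 20 UMIs over both sums in CM1. Of 5 other receptor chains of the family (Il6ra, Il11ra1, Cntfr and Il27ra, whose products signal with gp130, and Il31ra, whose product pairs with OSMR), Il11ra1 and Il31ra reached that number in CM1 and neither differed by a log2 ratio of 1. Over all nuclei, 3 of the 5 chains reached it for the WT label, with ratios from -0.96 to 2.85 and a median of -0.09. For the KO label 2 chains reached it over all nuclei, at -0.61 and -0.26. These sums mix populations whose shares differed between the libraries, and the share of all genes past the limit was not computed for them. Il11ra1, the receptor chain of interleukin 11, was lower after MI in CM5, by a ratio of -1.51 (-2.73 to -0.20) for the WT label and -1.21 (-2.15 to -0.28) for the KO label. In CM5, 10.8% and 9.37% of all genes were lower by a log2 ratio of 1 or more. Il11ra1 is overlapped by 6 annotated genes, so its counts are uncertain.

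Downstream of the receptors, a list of 20 genes that STAT3 is known to induce was examined in CM1, where 19 had enough UMIs. This list was chosen with earlier results of these data known, so its counts are descriptions and not a test. For the WT label 9 of the 19 were higher after MI, against 4.8% of all genes, and none was lower, against 5.01%. The list's median was 0.84 and that of all genes -0.071. For the KO label 8 of the 19 were higher, against 4.36% of all genes, and none was lower, against 4.3%. The medians were 0.46 for the list and 0.031 for all genes. Timp1, an inhibitor of matrix metalloproteinases, had the largest WT ratio, with 21, 58, 530 and 376 UMIs in WT-Sham, KO-Sham, WT-MI and KO-MI and ratios of 4.18 (3.55 to 4.88) and 3.16 (2.76 to 3.58). Cebpb, a transcription factor of the acute phase response, had 30, 72, 157 and 105 UMIs and ratios of 1.91 (1.33 to 2.52) and 1.01 (0.56 to 1.46). Mt2, a metallothionein, had 30, 79, 131 and 117 UMIs and ratios of 1.64 (1.06 to 2.27) and 1.03 (0.61 to 1.46). Serpina3n, an acute phase protease inhibitor, had 0, 1, 26 and 22 UMIs. With the 0 set to a floor of 3 UMIs, it was 6.20-fold higher after MI for the WT label.

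Il4ra, a receptor chain of interleukin 4, and the transcription factor Runx1 were also past the limit under both labels in CM1, with ratios of 1.25 and 2.30 for Il4ra and 1.52 and 3.13 for Runx1. The WT intervals of Runx1 and Myc included 0. Junb, Myc and Lrg1 were past it for the WT label only, at 1.27, 1.16 and 1.32, and Bcl3 and Cebpd for the KO label only, at 1.97 and 1.24. In CM5, 8 of 15 genes of the list were higher for the WT label, against 12.5% of all genes, and 6 of 14 for the KO label, against 12.8%. Other pathways also induce these genes, and the summed myeloid markers given above were higher in the MI libraries too; their part in these counts was not tested.

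The other kinases and STAT factors and the other inhibitors were counted with the same limit. In CM1, 7 of 8 kinases and STAT factors had enough UMIs. For the WT label all 7 had ratios below 0, from -1.01 to -0.27, with a median of -0.67 against -0.071 over all genes. Of these 1, Jak3, was past the limit at -1.01 (-2.42 to 0.33), where 5.01% of all genes were lower. For the KO label none was past the limit, where 4.36% of all genes were higher and 4.3% lower. There 3 of the 7 were above 0, with a median of -0.06 against 0.031 over all genes. Of 15 inhibitors beside Socs3, 14 had enough UMIs in CM1, with medians of 0.04 and 0.23. None was past the limit under either label. Of all genes, 4.8% were higher and 5.01% lower for the WT label, and 4.36% and 4.3% for the KO label. Lists this short do not tell such counts apart from those shares.

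**Figure D4:**
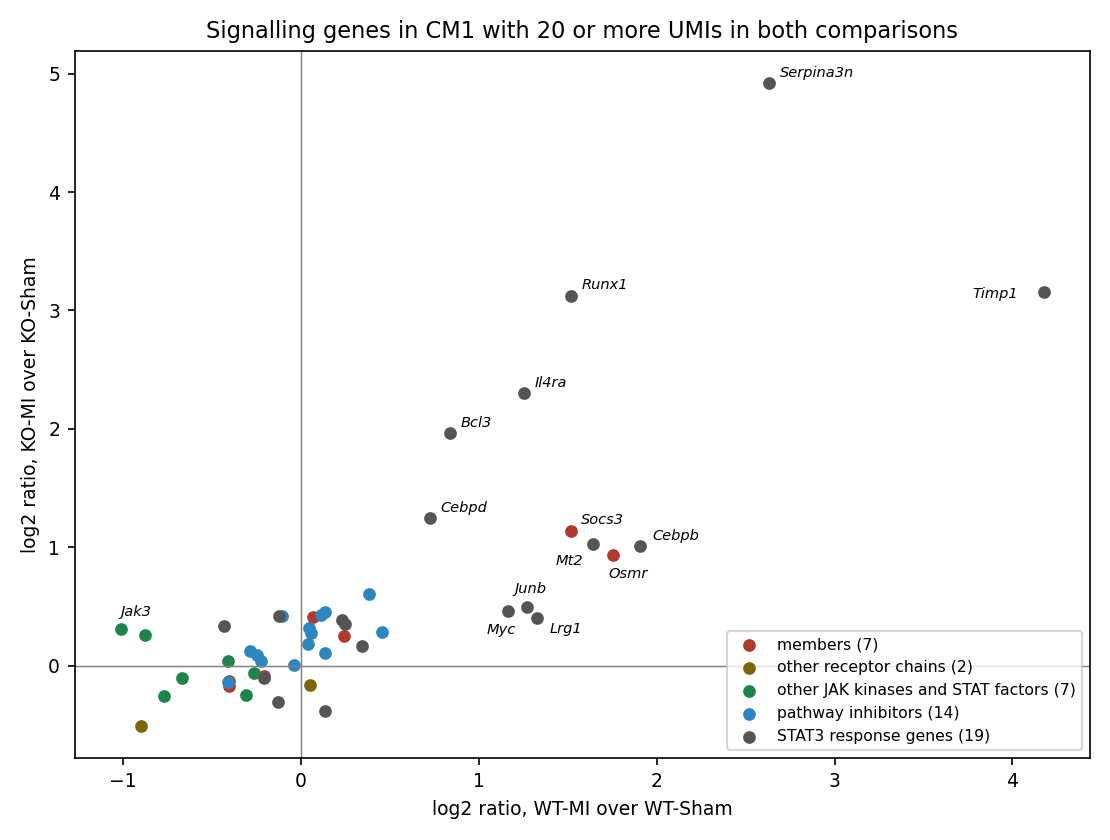
Log2 ratio of MI over Sham in CM1 for the WT label on the horizontal axis and the KO label on the vertical axis, for 49 signalling genes with 20 or more UMIs in both comparisons, coloured by list, with the 7 genes named members in the key. Osmr, Socs3 and part of the STAT3 response genes lie at the upper right, while that list reaches down to -0.43 for the WT label and -0.39 for the KO label. Serpina3n is drawn for the WT label with its 0 set to the floor of 3 UMIs. The 7 other kinases and STAT factors all lie to the left of 0.

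The genes whose level was most like that of each gene were sought over the 16 sums of 4 populations in 4 libraries, by Pearson's r of log2(CPM + 10) among 8550 genes. The sums share libraries and depth, so these values are descriptions. Osmr was most like Copa (r = 0.89), Slc2a1 (0.89) and Fem1b (0.88). Lifr was most like Ntn1 (0.92), Agtr1a (0.92) and Gramd4 (0.91), and Stat3 was most like Mindy3 (0.91), Tmtc3 (0.91) and Map2k3os (0.89). Il6st was most like Dcaf13 (0.90), Gnl3l (0.89) and Gna13 (0.87). Jak1 was most like Irf2bpl (0.79), Mxra7 (0.77) and Golga7 (0.77), and Jak2 was most like Dnajb6 (0.83), Eif2ak3 (0.82) and Washc2 (0.82).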

How the data were processed

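The authors deposited UMI counts per gene and nucleus, with no normalization, and the percent of each nucleus's UMIs from the mitochondrial genome. Per the study's methods and the submitters' processing notes, Cell Ranger aligned the reads to an mm10/GRCm38 pre-mRNA reference, so that intron reads were counted (its version is not given in the sources used here), and doublets were removed with Scrublet before Seurat 3 was used to integrate the libraries and transfer population labels. The nuclei deposited hold 537 to 2499 detected genes. No doublet caller was run again. The labels and the methods name different versions of the 10x Genomics 3′ kit. Another 10 deposited columns with values of nuclei were left out.

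UMIs were summed per library and deposited population and divided by the total of the sum (CPM). Intervals are exact at 95%, namely Poisson for CPM, conditional binomial for a log2 ratio and Clopper-Pearson for a share, and cover counting error only. A count of 0 was set to a floor of 3 UMIs, which makes a ratio a bound, and no ratio is given where both sums held 3 UMIs or fewer. Ratios were tested on simulated data. Python 3.11.15, scipy 1.17.1 and, for TMM factors, edgeR 4.0.16 were used. Symbols were matched to GENCODE M21 (22122 of 22574). Use of strand in the counting is not given in the sources used here, so genes that overlap another are uncertain.

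The 7 genes and the lists (64 signalling genes in all) were chosen with earlier results of these data known. Beside the 7, the genes named are list genes whose log2 ratio of MI over Sham reached 1 in size in CM1 under either label, each ligand (1 is not reported here), the 3 genes most like each of the 7 that had 100 or more UMIs (among genes with 320 or more), the targeted gene and the leading marker of each other cell type. Ankrd1 and the other receptor chains were named after their values were seen.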

Additional observations from a re-analysis of the deposited data

How the results depend on the processing

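Each group held 1 library, so no library could be left out, and intervals cover counting error alone, not the spread between animals or pools. No paired analysis was possible because each group held 1 library and the result comes from no test. Scaling by TMM, by median-of-ratios size factors or by totals without mitochondrial genes and Malat1 moved none of 129 ratios out of its reported interval, although some intervals then reached 0. Of the ratios of MI over Sham, 19 had an interval apart from 0 as reported. There were 7 after thinning to 1000 UMIs, 11 without the nuclei rich in genes of other cell types (4293 of 8585 nuclei kept) and 11 without the nuclei with a myeloid UMI (4457 kept). These alternatives leave fewer UMIs, which widens the intervals. Of the ratios of KO over WT, 5 lay apart from 0 as reported, against 3 with TMM scaling, 2 after thinning, 3 with the transferred labels and 8 without the nucleus with the most UMIs of the gene; the cause was not tested. Thinning gave 0.75 for Osmr and 0.45 for Stat3 in CM1 of the WT label and 0.48 for Stat3 in CM1 of the KO label. Summing all nuclei of a library gave, for the KO label, 1.49 for Osmr in CM1, 0.40 for Stat3 in CM1 and CM5, and -0.25 for Lifr in CM5, and for the WT label -0.32 for Lifr in CM5. The direction turned for Lifr in CM5 of the KO label after thinning (0.27), for KO over WT of Il6st in CM1 of the Sham libraries after thinning (0.015) and of Stat3 in CM4 of the Sham libraries over all nuclei (-0.065). Over the lists and 6 comparisons of MI over Sham, with a gene counted once in each comparison, 60 ratios were past the limit with at least 20 UMIs, against 24 with at least 50 and 133 with at least 1.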
